A study of Mus musculus with 12 samples.

Results

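The semaphorins, plexins, neuropilins and netrins with their receptors form 2 linked families of guidance signals, and 40 of the 55573 genes in the files belong to them. Of these 40 genes, taken by mouse symbol, 23 are ligands (20 semaphorins and 3 netrins) and 17 are receptors (9 plexins, 2 neuropilins and 6 netrin receptors). Their polyadenylated RNA was measured by sequencing in mouse breast cancer cells of the line PB3, which is labelled negative for the estrogen receptor, the progesterone receptor and HER2. The 12 libraries fall into 4 groups of 3. Untreated parental PB3 cells are called Control. Their derivatives were selected with eribulin (ERI-R), paclitaxel (PAC-R) or vinorelbine (VIN-R), each drug being used at 300, 500 and 800 nM. The labels call the derivatives resistant clones, do not say at which of the 3 doses a library was taken, and number the replicates without naming separate cultures. The p-values below therefore measure only the spread between these libraries, which may be technical. All 3 drugs bind tubulin: paclitaxel stabilises microtubules, and eribulin and vinorelbine block their growth.

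Semaphorins are secreted or membrane-bound proteins that steer growing axons, vessels and epithelial or tumour cells by acting on plexins, receptors that change integrin adhesion and the actin skeleton through small GTPases. Class 3 semaphorins are secreted, and most of them need a neuropilin beside the plexin. Semaphorins of classes 4 to 7 sit in the membrane and mostly bind plexins directly. Netrins are laminin-related secreted proteins that attract cells through Dcc and neogenin and repel them through the Unc5 receptors, which are also known as dependence receptors because they can trigger cell death when no netrin is bound. In the mammary gland, netrin and neogenin hold the layers of the terminal end bud together.

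The library totals of expected counts ran from 11141028 to 13454395, where 3 counts correspond to 0.217 to 0.315 CPM. CPM here is the expected count scaled to the TMM-adjusted total of its library, and a change is a log2 fold change from edgeR. The macrophage lysozyme Lyz2 was at 0 CPM in 1 library of each group (VIN-R 3, PAC-R 3, ERI-R 3 and Control 1), against 182 CPM or more in each of the other 8 libraries, and the summed level of 14 leukocyte markers was 18.6 to 167 CPM in these 4 and 701 to 4793 CPM in the 8. Each group thus held 1 library without and 2 with Lyz2. Most of the summed level in the 4 was Cd14, at 17.3 CPM in Control 1, 163 in ERI-R 3, 38.4 in PAC-R 3 and 30.1 in VIN-R 3. Fibroblast markers (5 genes) summed to 13.5 to 23.9 CPM in the 4 and 24.2 to 89.3 CPM in the 8, and endothelial markers (6 genes) to 0.315 to 3.25 and 2.51 to 18.4 CPM, with the endothelial Cldn5 at 0 in all 12. Their part in the results was not tested. For members called against Control, values from the 8 libraries are given where they end a call or move it by over 1.5 times. In bulk RNA, fewer cells of a type and less RNA per cell cannot be told apart. The 6 mammary epithelial markers Epcam, Cdh1, Krt8, Krt18, Krt5 and Krt14 summed to 986 to 4853 CPM over the 12 libraries. Of these, Epcam, Cdh1, Krt14 and Krt5 rose in ERI-R against Control (log2 fold changes of 4.94, 4.49, 7.29 and 6.67, and for the last 3 of 5.14, 6.04 and 5.48 in the 8 libraries). Krt14 was at 8.29 without Control 2 and 6.30 without ERI-R 3. Krt18 and Krt8 were not called, with lower means in ERI-R and log2 fold changes of -1.19 (SE 0.72, adjusted p = 0.299) and -0.79 (SE 0.70, adjusted p = 0.505). Epcam stood at 10.2, 8.12 and 4.63 CPM in Control 1 to 3 and at 234, 243 and 228 in ERI-R 1 to 3. The 6 neuron and glia markers summed to 0.811 to 2.41 CPM, 3 T cell markers to at most 0.0958 CPM, and 4 erythroid and adipocyte markers to at most 0.210 CPM.

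On the plus strand of mouse chromosome 5, 4 class 3 semaphorin genes lie in this order (GENCODE M21, GRCm38): Sema3d at chr5:12383385-12588948, Sema3a at chr5:13125414-13602565, Sema3e at chr5:14025276-14256689 and Sema3c at chr5:17574281-17730268. In ERI-R the outer genes, Sema3d and Sema3c, rose against Control, while Sema3a and Sema3e, which lie between them, fell. The 250 bases before the RefSeq start of Sema3d, Sema3a and Sema3e are shown, with those of Nrp1 at chr8:128358823-128359072, the neuropilin that serves Sema3a and that also fell. None of these 4 windows overlaps an annotated exon, and those of Sema3a and Nrp1 lie inside the gene as GENCODE draws it. Capitals mark a match to the hexamer CACCTG or its reverse complement CAGGTG, the E-box known to be bound by Snail and Zeb repressors of epithelial genes. The windows are read 5′ to 3′ on the plus strand, GRCm38.p6, at chr5:12382916-12383165, chr5:13396534-13396783 and chr5:14025026-14025275 for the semaphorins.
Sema3d: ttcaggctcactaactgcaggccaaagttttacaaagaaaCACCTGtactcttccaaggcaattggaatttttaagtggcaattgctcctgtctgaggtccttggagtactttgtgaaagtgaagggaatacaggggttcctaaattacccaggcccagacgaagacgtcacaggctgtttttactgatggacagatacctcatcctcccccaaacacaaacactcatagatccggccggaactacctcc
Sema3a: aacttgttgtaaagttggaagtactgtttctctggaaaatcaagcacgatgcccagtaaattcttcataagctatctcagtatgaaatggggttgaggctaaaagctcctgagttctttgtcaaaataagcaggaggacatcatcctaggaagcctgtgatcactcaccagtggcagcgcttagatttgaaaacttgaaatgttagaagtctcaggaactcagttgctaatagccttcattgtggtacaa
Sema3e: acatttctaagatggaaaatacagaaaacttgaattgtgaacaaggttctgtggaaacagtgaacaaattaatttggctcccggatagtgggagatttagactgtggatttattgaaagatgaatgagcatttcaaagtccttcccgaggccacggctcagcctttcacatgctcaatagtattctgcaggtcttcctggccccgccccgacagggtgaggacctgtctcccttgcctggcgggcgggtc
Nrp1: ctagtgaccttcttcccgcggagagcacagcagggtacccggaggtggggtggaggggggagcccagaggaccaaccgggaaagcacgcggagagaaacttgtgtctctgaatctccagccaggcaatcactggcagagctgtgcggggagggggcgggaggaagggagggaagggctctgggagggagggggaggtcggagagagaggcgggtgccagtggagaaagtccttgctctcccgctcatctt
The Sema3d match begins 210 bases before the RefSeq start, which itself lies upstream of the GENCODE start of the gene given above. The other 3 windows held no match on either strand, which says only that these letters are not in these 250 bases. CpG dinucleotides numbered 4 in the Sema3d window, 2 in that of Sema3a, 7 in that of Sema3e, 11 in that of Nrp1 and 39 in that of Sema3c, which overlaps annotated exons, is not shown and holds no hexamer. These stand beside a median of 6 (quartiles 2 and 16) over all 32851 RefSeq windows of this length. RefSeq windows were used for 32 of the 40 members, 43 windows in all. The members left without a window include Sema6a, Dcc and Ntn1, of which Sema6a and Ntn1 rose in ERI-R. Their absence does not show that RefSeq holds no window for them. The count of matched members that rose, given next, leaves out Sema6a and Ntn1. It therefore does not describe all members that rose. The hexamer occurred in the windows of 5 members: Sema3d, Sema4c, Sema6d, Sema4f and Plxnb2. By the call in ERI-R against Control, these were 1 of 3 matched members that rose, 2 of 13 that fell and 2 of 16 that were not called, and over all genes 19.4% of 27025 had the hexamer in at least 1 window. A match is a description of the letters, not a binding site.

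The first comparison asked how the eribulin-selected line differed from the parental line. Of the 40 members 33 were tested, 19 ligands and 14 receptors, and 19 of them were called at an adjusted p under 0.05 (edgeR quasi-likelihood test, Benjamini-Hochberg over 14226 genes). Of these calls, 5 were higher and 14 lower in ERI-R. Over all genes tested 19.2% were called, 9.51% higher and 9.69% lower. Ligands made up 13 of the calls, 4 higher and 9 lower of 19 tested, and receptors 6, 1 higher and 5 lower of 14. The median log2 fold change was -0.81 over the 33 members and -0.0044 over all genes, with values from -5.25 for Sema6d to 4.81 for Unc5c. The members that rose were Sema3c, Sema3d, Sema6a, Ntn1 and Unc5c. In the 8 libraries with Lyz2 18 members were called, 6 higher and 12 lower, beside 22.7% of all genes. With Control and ERI-R fitted without the other lines 13 members were called, beside 12.8% of all genes. In that edgeR fit the threshold was missed by Sema3d (adjusted p = 0.069), Sema4c (0.102), Sema6b (0.123), Sema6c (0.0835) and Sema7a (0.0575). Unc5a did not pass the expression filter there and was not tested. Sema4c and Sema6b were also not called with total counts alone or without the filter. Leaving out single libraries gave 14 to 19 calls, and 11 of the 19 members stayed called without each of the 6 Control and ERI-R libraries in turn.

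**Figure D1:**
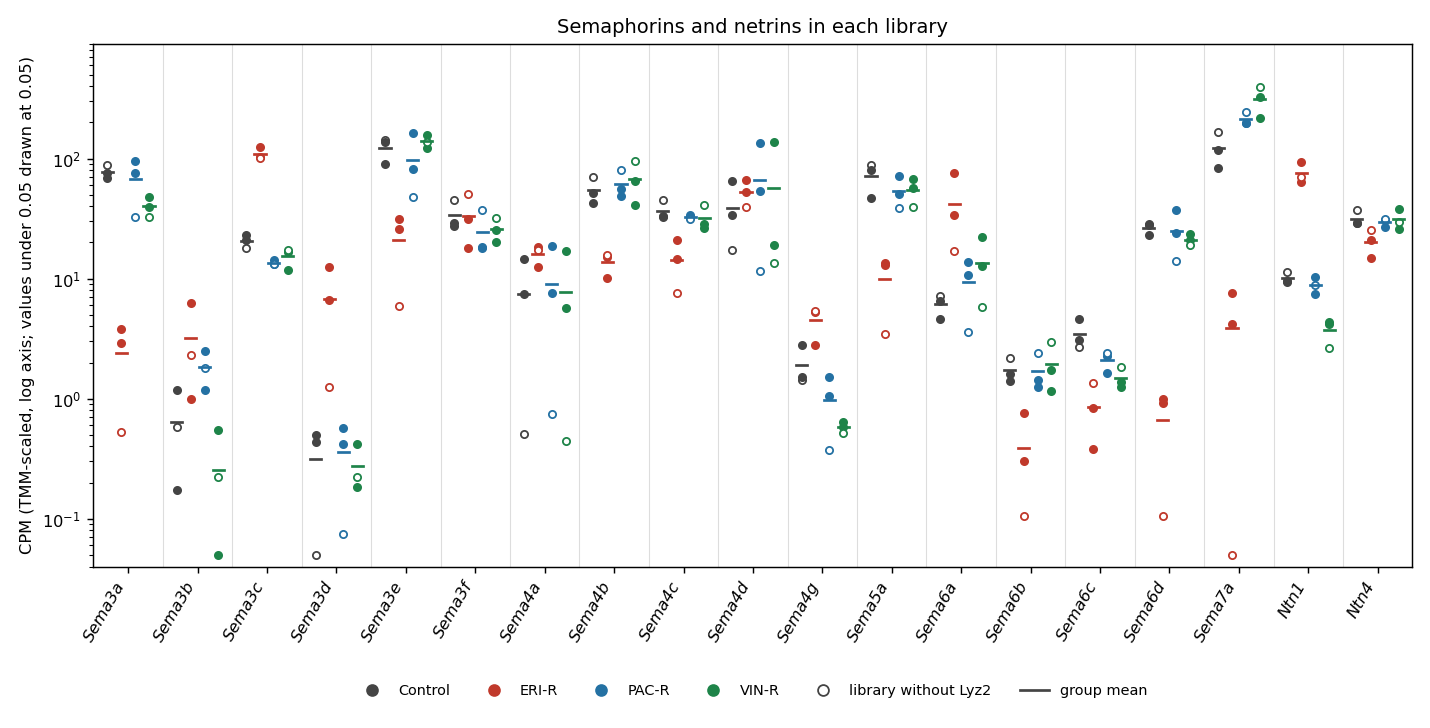
CPM (log axis, values under 0.05 drawn at 0.05) of the 19 tested semaphorins and netrins in each of the 12 libraries, coloured by group, with lines at group means and open circles for the 4 libraries without Lyz2. The red ERI-R points of Sema3c and Ntn1 lie above all others, and those of Sema3a, Sema6d and Sema7a lie below all others.

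Among the class 3 semaphorins, 2 rose, 2 fell and 2 were not called in ERI-R. The shares of all genes were 9.51% higher and 9.69% lower. Sema3c, a secreted ligand of neuropilins and plexin D1 known from heart and vessel development, had 17.8, 21.0 and 23.2 CPM (Control 1 to 3), 103, 125 and 101 (ERI-R), 14.2, 13.3 and 13.2 (PAC-R) and 11.7, 16.8 and 17.5 (VIN-R). All 3 ERI-R libraries lay above the other 9, with a log2 fold change of 2.40 (SE 0.25, adjusted p = 0.000353). Sema3d, a secreted semaphorin of heart and vessel development, had 0, 0.503 and 0.437 CPM (Control 1 to 3), 12.4, 6.63 and 1.26 (ERI-R), 0.575, 0.421 and 0.0746 (PAC-R) and 0.418, 0.183 and 0.221 (VIN-R). Its counts in Control were 0, 6 and 5. The ERI-R libraries were again all above the rest, but ERI-R 3, at 1.26 CPM, lay close to the highest other library, PAC-R 1 at 0.575 CPM, and the change was 4.42 (SE 1.12, adjusted p = 0.0181). Sema3a, the axon-repelling ligand of Nrp1 with plexins of group A, had 89.0, 69.4 and 75.4 CPM (Control 1 to 3), 2.89, 3.81 and 0.525 (ERI-R), 76.1, 95.8 and 32.7 (PAC-R) and 39.7, 48.1 and 32.9 (VIN-R). The highest ERI-R library was at 3.81 CPM and the lowest of the others at 32.7 CPM, so the groups were far apart, with a log2 fold change of -5.00 (SE 0.66, adjusted p = 0.00081). Sema3e, which binds plexin D1 without a neuropilin and repels vessels, had 142, 89.4 and 137 CPM (Control 1 to 3), 31.4, 26.0 and 5.88 (ERI-R), 81.7, 164 and 47.5 (PAC-R) and 122, 158 and 138 (VIN-R). It was lower in every ERI-R library than in any other, lowest in ERI-R 3, and the change was -2.54 (SE 0.60, adjusted p = 0.0132).

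Single libraries moved some of these values. Without ERI-R 3 the log2 fold change was -4.39 for Sema3a, -1.95 for Sema3e and 5.05 for Sema3d, and without ERI-R 1 it was 3.68 for Sema3d. In the 8 libraries with Lyz2 Sema3a was at -4.34 and Sema3e at -1.89. Sema3d was no longer called without Control 3 (adjusted p = 0.0611), nor Sema3e without Control 1 (adjusted p = 0.0556). Sema3f, the ligand of Nrp2, ranged from 17.8 to 50.8 CPM over the 12 libraries, with overlapping groups and a log2 fold change of -0.03 (SE 0.43, adjusted p = 0.977). Sema3b, another secreted member, had 0.578, 1.17 and 0.175 CPM (Control 1 to 3), 6.31, 0.990 and 2.31 (ERI-R), 2.49, 1.18 and 1.79 (PAC-R) and 0, 0.548 and 0.221 (VIN-R). It was not called against Control, with a log2 fold change of 2.30 (SE 0.97, adjusted p = 0.132), and the groups overlapped.

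**Figure D2:**
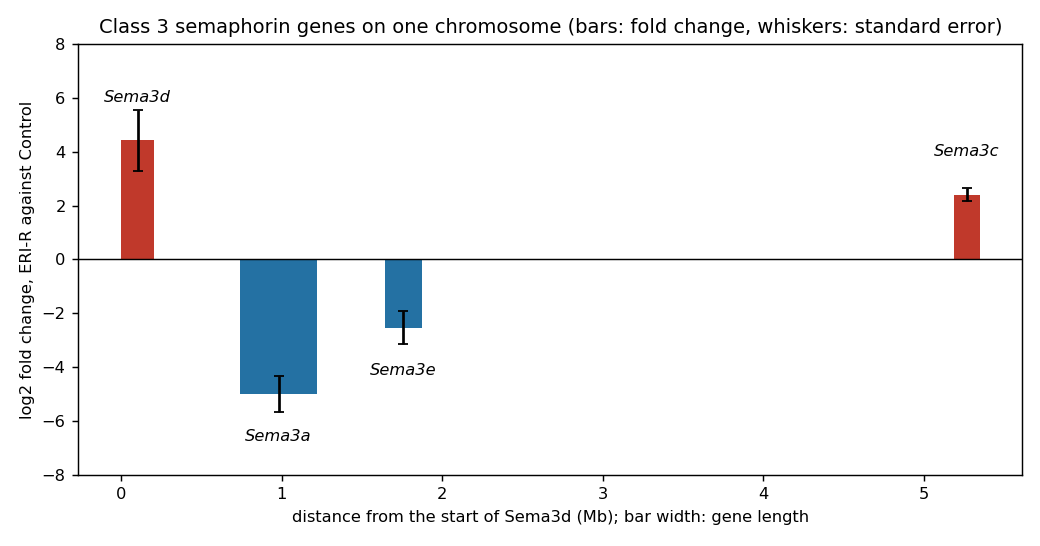
Log2 fold change in ERI-R against Control (bars, with standard errors as whiskers) of 4 class 3 semaphorin genes, on one chromosome, placed by distance in Mb from the start of Sema3d, with bar widths equal to gene lengths. Sema3d and Sema3c point up, at 4.42 and 2.40, and Sema3a and Sema3e between them point down, at -5.00 and -2.54.

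Of the 5 tested class 4 semaphorins, 2 fell in ERI-R and none rose, beside 9.69% of all genes lower and 9.51% higher. Sema4b, a transmembrane semaphorin of epithelia and neurons, had 69.7, 51.4 and 42.4 CPM (Control 1 to 3), 15.1, 10.1 and 15.7 (ERI-R), 48.5, 55.4 and 80.2 (PAC-R) and 65.4, 41.2 and 95.1 (VIN-R). Every ERI-R library was below the other 9, and the change was -2.00 (SE 0.37, adjusted p = 0.00388). Sema4c, a ligand of Plxnb2, had 44.9, 32.6 and 33.0 CPM (Control 1 to 3), 20.8, 14.6 and 7.66 (ERI-R), 33.9, 32.7 and 31.1 (PAC-R) and 26.2, 28.5 and 40.9 (VIN-R). The ERI-R values were the lowest of the 12, but the change, -1.35 (SE 0.35, adjusted p = 0.0209), was not called without Control 1 (-1.09, adjusted p = 0.13) or ERI-R 2 (-1.33, adjusted p = 0.0671). Sema4c shares 7.27% of its exon bases with the antisense gene D430040D24Rik, which did not exceed 1.71 CPM, here by library totals without TMM. The strand setting of the counting is not given in the sources used here. Sema4g, a membrane-bound ligand of Plxnb2 in the cerebellum, had 1.44, 1.51 and 2.79 CPM (Control 1 to 3), 5.32, 2.82 and 5.35 (ERI-R), 1.05, 1.52 and 0.373 (PAC-R) and 0.585, 0.639 and 0.516 (VIN-R). ERI-R lay above Control in every library, with a log2 fold change of 1.23 (SE 0.52, adjusted p = 0.137) that did not pass the test. Sema4d, the ligand of Plxnb1, and Sema4a, a semaphorin of immune cells, ranged from 11.6 to 137 and from 0.443 to 18.8 CPM and were not called. Sema5a, the class 5 semaphorin with thrombospondin repeats, had 87.7, 46.9 and 81.0 CPM (Control 1 to 3), 13.5, 13.1 and 3.46 (ERI-R), 50.9, 72.0 and 38.6 (PAC-R) and 56.6, 67.5 and 39.7 (VIN-R). It fell in all 3 ERI-R libraries to below the rest, with a log2 fold change of -2.84 (SE 0.51, adjusted p = 0.00337), and of -2.18 in the 8 libraries with Lyz2.

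All 4 class 6 semaphorins, transmembrane ligands of group A plexins, were called in ERI-R, 1 higher and 3 lower, beside 19.2% of all genes. Sema6d, a ligand of Plxna1, had 28.4, 28.1 and 23.2 CPM (Control 1 to 3), 0.988, 0.914 and 0.105 (ERI-R), 23.8, 37.1 and 14.0 (PAC-R) and 23.6, 21.0 and 19.0 (VIN-R). It stayed under 1 CPM in each ERI-R library and at 14.0 CPM or more elsewhere, so the groups did not overlap, and the log2 fold change of -5.25 (SE 0.64, adjusted p = 0.000557) was the lowest of the 33 members. Without ERI-R 3 it was -4.65, and in the 8 libraries with Lyz2 -4.64. Sema6a, the ligand of Plxna2 and Plxna4, went the other way, with 7.15, 6.53 and 4.63 CPM (Control 1 to 3), 75.3, 33.6 and 17.0 (ERI-R), 10.6, 13.7 and 3.58 (PAC-R) and 22.1, 12.8 and 5.83 (VIN-R). ERI-R 1 and ERI-R 2 were the highest of all libraries, while ERI-R 3 lay above Control and below VIN-R 1. The change was 2.78 (SE 0.69, adjusted p = 0.0159), which was 2.07 without ERI-R 1, 3.38 in the 8 libraries with Lyz2, and not called without Control 2 (adjusted p = 0.0575) or Control 3 (adjusted p = 0.0723).

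Sema6b and Sema6c were near 1 CPM. Sema6b, a ligand of Plxna4, had 2.17, 1.59 and 1.40 CPM (Control 1 to 3), 0.760, 0.305 and 0.105 (ERI-R), 1.25, 1.43 and 2.39 (PAC-R) and 1.17, 1.73 and 2.95 (VIN-R). Its 3 ERI-R libraries held 10, 4 and 1 counts and were the lowest of the 12. The change was -2.08 (SE 0.64, adjusted p = 0.0455), and it was called without ERI-R 1 (-2.94) but not without any other of the 6 Control and ERI-R libraries (-2.22 to -1.53), nor in the 8 libraries with Lyz2 (-1.37, adjusted p = 0.141). Sema6c, the remaining class 6 member, had 2.67, 3.10 and 4.63 CPM (Control 1 to 3), 0.836, 0.381 and 1.36 (ERI-R), 1.63, 2.27 and 2.39 (PAC-R) and 1.25, 1.37 and 1.84 (VIN-R). ERI-R was below Control and PAC-R throughout but overlapped VIN-R at ERI-R 3. The change was -2.01 (SE 0.50, adjusted p = 0.0156), not called without Control 3 (adjusted p = 0.0658) or ERI-R 2 (-1.61, adjusted p = 0.0502).

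Sema7a, a semaphorin held in the membrane by a glycolipid anchor that binds integrin beta-1 and Plxnc1, fell in ERI-R. It had 168, 119 and 83.5 CPM (Control 1 to 3), 7.53, 4.19 and 0 (ERI-R), 196, 199 and 246 (PAC-R) and 328, 219 and 397 (VIN-R). ERI-R 3 had 0 counts, which allows up to 0.315 CPM, and no ERI-R library exceeded 7.53 CPM, while no other was under 83.5 CPM. The change was -4.97 (SE 1.08, adjusted p = 0.00854). It was -5.83 without ERI-R 1, -4.25 without ERI-R 3 and -4.01 in the 8 libraries with Lyz2, and it missed the threshold when Control and ERI-R were fitted alone (adjusted p = 0.0575).

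Netrin-1 (Ntn1), the attracting and repelling cue of the family, rose in ERI-R. It had 11.3, 9.47 and 9.52 CPM (Control 1 to 3), 64.1, 93.9 and 70.0 (ERI-R), 10.2, 7.49 and 8.88 (PAC-R) and 4.18, 4.38 and 2.66 (VIN-R). The lowest ERI-R library was at 64.1 CPM and the highest of the others at 11.3 CPM, with a log2 fold change of 2.91 (SE 0.29, adjusted p = 0.000353), and of 3.15 in the 8 libraries with Lyz2. Ntn4, a netrin of basement membranes that binds laminin, ranged from 14.9 to 38.2 CPM. Its ERI-R libraries were the lowest of the 12 and its log2 fold change of -0.64 (SE 0.27, adjusted p = 0.133) did not pass the test.

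Of the 8 tested plexins, 2 fell in ERI-R and none rose. That share lies near the 19.2% of all genes called. Plxna2, a receptor of Sema6a and of neuropilin-bound class 3 semaphorins, had 44.8, 29.8 and 38.7 CPM (Control 1 to 3), 8.44, 5.48 and 2.20 (ERI-R), 23.0, 36.3 and 26.5 (PAC-R) and 21.6, 36.5 and 33.0 (VIN-R). ERI-R did not overlap with any other group, and the change was -2.81 (SE 0.46, adjusted p = 0.00204), or -2.21 in the 8 libraries with Lyz2. Plxna4, which with neuropilin-1 transmits Sema3a and which also binds Sema6a and Sema6b, had 15.2, 9.47 and 7.60 CPM (Control 1 to 3), 0.912, 0.533 and 0 (ERI-R), 8.62, 14.9 and 10.2 (PAC-R) and 15.6, 12.3 and 17.3 (VIN-R). All ERI-R libraries were under 1 CPM, ERI-R 3 at 0 counts, and the other 9 were at 7.60 CPM or more. The change was -4.41 (SE 0.78, adjusted p = 0.00292), -5.17 without ERI-R 1, -3.74 without ERI-R 3 and -3.44 in the 8 libraries with Lyz2.

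The other 6 tested plexins were not called against Control. Plxnb1, the receptor of Sema4d, had 58.0, 34.5 and 38.2 CPM (Control 1 to 3), 93.1, 62.8 and 105 (ERI-R), 15.2, 20.9 and 39.5 (PAC-R) and 15.2, 14.7 and 42.0 (VIN-R). ERI-R was above all other libraries, but the log2 fold change of 1.00 (SE 0.49, adjusted p = 0.195) did not pass. It was called in the 8 libraries with Lyz2 (1.20, adjusted p = 0.0183) and with the mean log2 CPM of the leukocyte markers as a covariate (1.04, adjusted p = 0.0108). Plxnb2, a receptor of class 4 semaphorins, ranged from 272 to 605 CPM, Plxna1 from 60.8 to 190.1 and Plxna3 from 13.6 to 25.8, with overlapping groups. Plxnc1, the receptor of Sema7a, and Plxnd1, the receptor of Sema3e, reached at most 18.7 and 33.4 CPM.

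**Figure D3:**
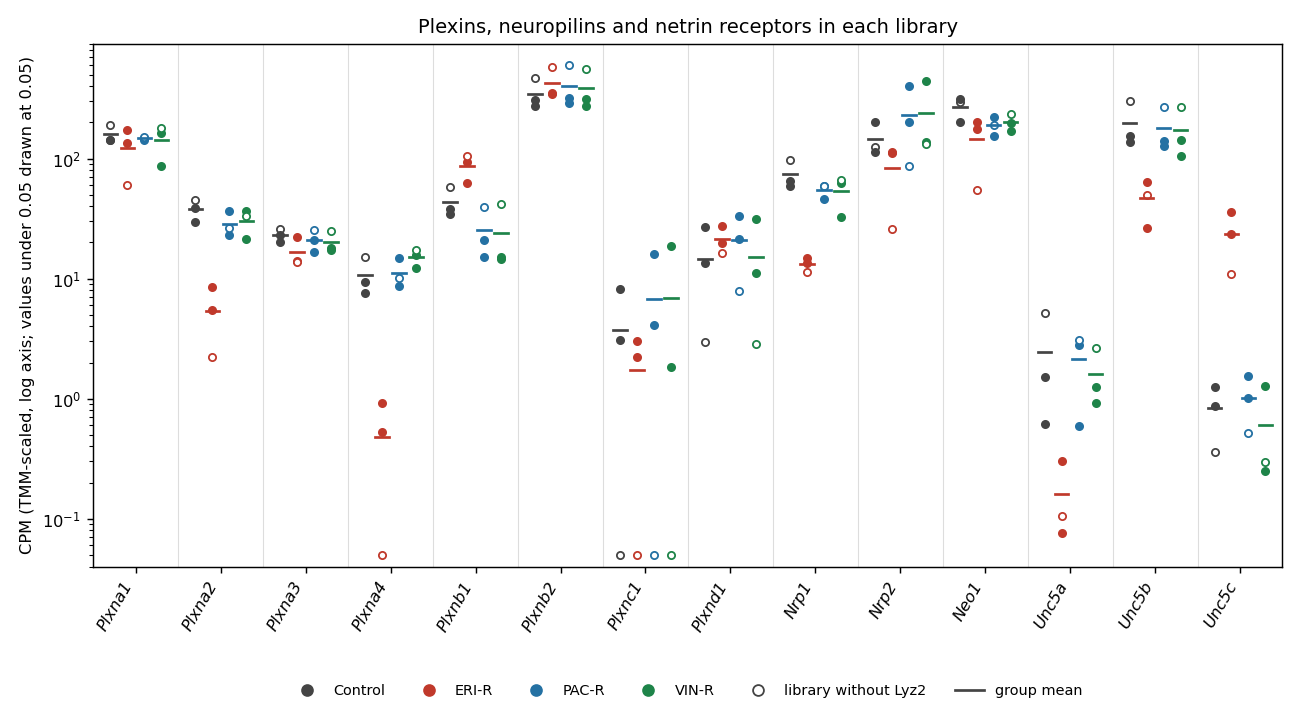
CPM (log axis, values under 0.05 drawn at 0.05) of the 14 tested plexins, neuropilins and netrin receptors in each of the 12 libraries, coloured by group, with lines at group means and open circles for the 4 libraries without Lyz2. Unc5c is higher in ERI-R than in every other library, Plxna2, Plxna4, Nrp1 and Unc5b are lower, and Plxnc1 is at 0 in the 4 open circles.

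Neuropilin-1 (Nrp1), the co-receptor of class 3 semaphorins and of VEGF, had 97.0, 65.2 and 59.0 CPM (Control 1 to 3), 13.4, 14.9 and 11.4 (ERI-R), 59.1, 46.5 and 58.6 (PAC-R) and 32.7, 62.3 and 65.9 (VIN-R). It was at 14.9 CPM or less in ERI-R and 32.7 CPM or more elsewhere. The change was -2.48 (SE 0.33, adjusted p = 0.000843) and stayed called in every alternative tried. Nrp2, the neuropilin of Sema3f and of VEGF-C, ranged from 25.9 to 443 CPM and was not called, with a log2 fold change of -0.81 (SE 0.70, adjusted p = 0.497) and overlapping groups.

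Among the netrin receptors, Unc5c rose and Unc5a and Unc5b fell in ERI-R. Unc5c, a repelling receptor, had 0.361, 1.26 and 0.873 CPM (Control 1 to 3), 35.8, 23.4 and 10.9 (ERI-R), 1.53, 1.01 and 0.523 (PAC-R) and 0.251, 1.28 and 0.295 (VIN-R). No ERI-R library was under 10.9 CPM and no other exceeded 1.53 CPM, and the log2 fold change of 4.81 (SE 0.80, adjusted p = 0.00217) was the highest of the 33 members. Unc5b, known from vessels as well as neurons, had 302, 156 and 136 CPM (Control 1 to 3), 64.3, 26.7 and 49.3 (ERI-R), 128, 140.0 and 266 (PAC-R) and 144, 106 and 271 (VIN-R). The ERI-R libraries were the lowest of the 12, with a log2 fold change of -2.08 (SE 0.51, adjusted p = 0.0152). That call was lost without Control 1 (-1.56, adjusted p = 0.082) and without ERI-R 2 (-1.77, adjusted p = 0.0652).

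Unc5a had 5.20, 1.51 and 0.611 CPM (Control 1 to 3), 0.304, 0.0762 and 0.105 (ERI-R), 2.78, 0.589 and 3.06 (PAC-R) and 1.25, 0.913 and 2.66 (VIN-R). ERI-R was the lowest group, with 4, 1 and 1 counts in its libraries, and Control 1 was the highest library of the 12. The log2 fold change of -3.81 (SE 1.00, adjusted p = 0.0216) was not called without Control 1 (-2.51, adjusted p = 0.112), ERI-R 2 (-3.44, adjusted p = 0.0807) or ERI-R 3 (-3.48, adjusted p = 0.0698), nor in the 8 libraries with Lyz2 (-2.31, adjusted p = 0.146), and was -4.62 without ERI-R 1. Unc5a shares 0.816% of its exon bases with Hk3 on the other strand, which reached at most 151 CPM, here by library totals without TMM. Without a stated strand setting, reads of Unc5a and Hk3 cannot be told apart in these bases. Neo1 (neogenin), the receptor of netrins and repulsive guidance molecules, ranged from 54.8 to 311 CPM, lowest in ERI-R 3, and was not called (-0.90 (SE 0.43, adjusted p = 0.182)).

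The remaining 7 members, Sema3g, Sema4f, Sema5b, Ntn3, Plxnb3, Dcc and Unc5d, were too low to be tested. None exceeded 1.12 CPM in any library, and Sema5b had 0 counts in all 12. Dcc, the classical attracting netrin receptor, reached at most 0.149 CPM, so of the netrin receptors only Neo1 and the first 3 Unc5 genes were at 1 CPM or more in the mean of a group.

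The next comparisons asked whether paclitaxel or vinorelbine selection went with changes in the same genes. In PAC-R against Control edgeR called 0 of the 33 tested members and 0% of all genes, and DESeq2 called 0 members and 0.169% of all genes. In VIN-R against Control edgeR again called 0 members and 0% of all genes, while DESeq2 called 1 member, Ntn1, beside 0.253% of all genes. Ntn1 was lower in the 3 VIN-R libraries than in the other 9. Its log2 fold change against Control was -1.43 (SE 0.28, adjusted p = 0.493) by edgeR and -1.43 by DESeq2 (adjusted p = 0.00205). At an unadjusted edgeR p under 0.05 there was 1 member in PAC-R, Sema3c (-0.61 (SE 0.24)), beside 1.72% of all genes. In VIN-R there were 3 such members, Ntn1, Sema4g (-1.71 (SE 0.55)) and Sema6c (-1.21 (SE 0.48)), beside 2.68% of all genes. Sema7a had a log2 fold change of 0.79 (SE 0.92, adjusted p = 1) in PAC-R and 1.35 (SE 0.93, adjusted p = 1) in VIN-R and did not pass the test in either line. Between PAC-R and VIN-R edgeR called 0 members and 0% of all genes, and DESeq2 0 members and 0.0351%. There 2 members, Ntn1 (1.25 (SE 0.28), higher in PAC-R) and Sema3b (2.80 (SE 1.04)), had an unadjusted p under 0.05, beside 1.10% of all genes. A missed threshold does not show that these lines were alike.

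**Figure D4:**
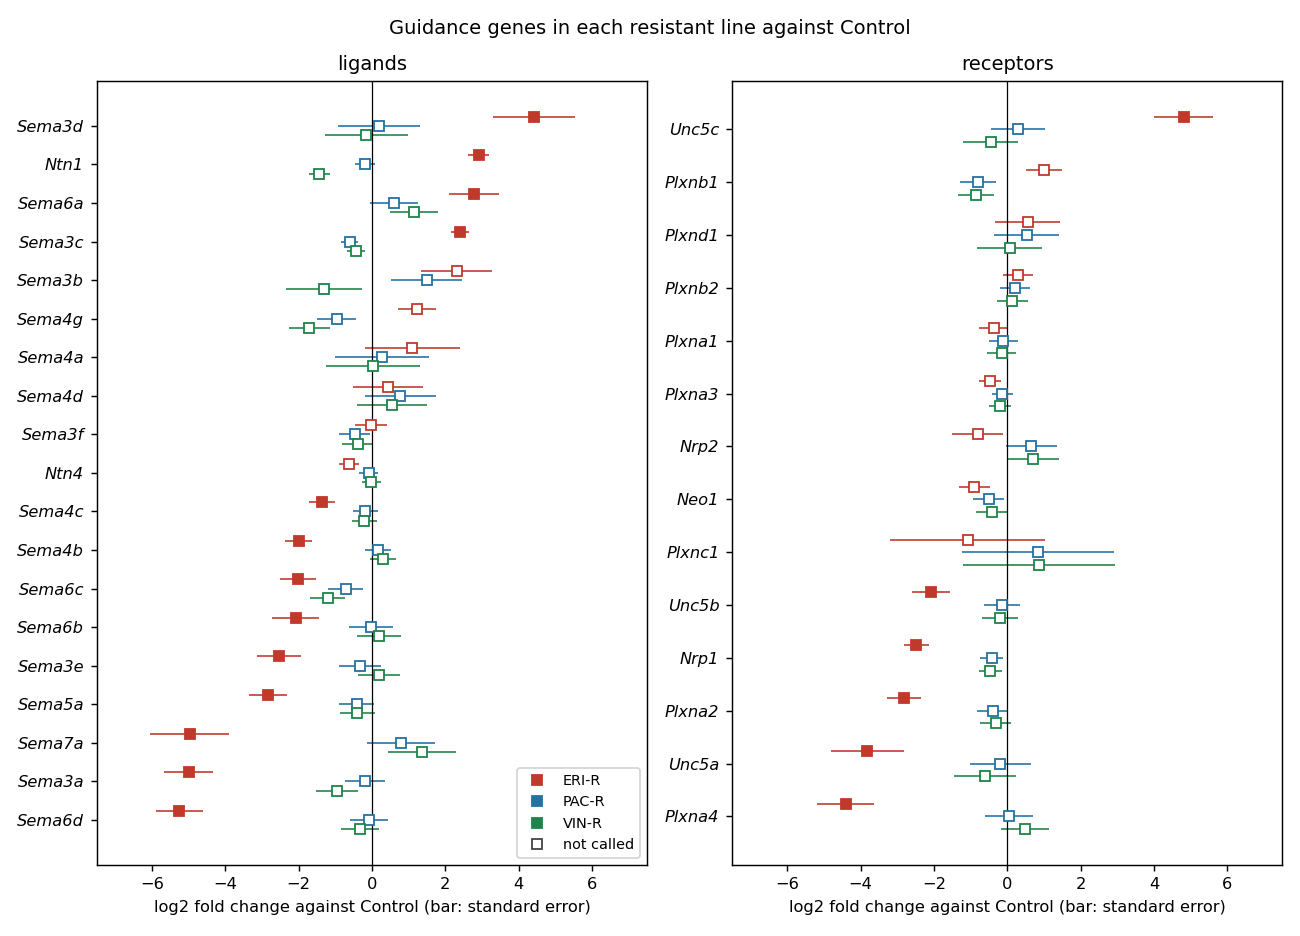
Log2 fold change against Control (squares, with standard errors as bars) of the 33 tested members in ERI-R, PAC-R and VIN-R, ligands on the left and receptors on the right, with filled squares for calls at an adjusted p under 0.05. Filled squares occur only for ERI-R, 5 to the right and 14 to the left of 0.

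ERI-R was also compared directly with the other resistant lines, which tests the difference between lines. These comparisons share the ERI-R libraries with the first. Against PAC-R 20 of 33 members were called, 7 higher and 13 lower, beside 18.7% of all genes (9.19% higher and 9.55% lower). Against VIN-R it was also 20, 7 higher and 13 lower, beside 19.3% of all genes (9.55% higher and 9.74% lower). Leaving out single libraries gave 13 to 17 calls against PAC-R, the fewest without PAC-R 1, and 14 to 17 against VIN-R. Without each library of the compared lines in turn, 11 members stayed called against PAC-R and 13 against VIN-R. Calls against PAC-R were lost without some library for Sema3d, Sema3e, Sema4c, Sema4g, Sema6a, Sema6b, Plxnb1, Unc5a and Unc5b. Against VIN-R they were lost for Sema3b, Sema3d, Sema4c, Sema6b, Plxnb1, Unc5a and Unc5b. Ntn1 differed by 3.10 (SE 0.29, adjusted p = 0.000333) from PAC-R and by 4.34 (SE 0.31, adjusted p = 0.000131) from VIN-R. Sema7a differed by -5.76 (SE 1.12, adjusted p = 0.00505) and -6.32 (SE 1.15, adjusted p = 0.00312). For Unc5c the differences were 4.51 (SE 0.79, adjusted p = 0.00292) and 5.26 (SE 0.82, adjusted p = 0.00141), and for Sema3c 3.01 (SE 0.25, adjusted p = 0.000296) and 2.84 (SE 0.25, adjusted p = 0.000166). Leaving out single libraries moved Sema7a to between -6.63 and -5.05 against PAC-R and between -7.19 and -5.62 against VIN-R, and in the 8 libraries with Lyz2 it was -4.96 and -5.44. With ERI-R and PAC-R fitted alone the Sema7a call was lost (-5.66, adjusted p = 0.0577). Leaving out VIN-R 2 moved Unc5c to 6.36 against VIN-R. In the 8 libraries with Lyz2, Sema6b (-1.21 and -1.31, adjusted p = 0.19 and 0.155) and Unc5a (-2.94 and -2.35, adjusted p = 0.0667 and 0.135) were not called against PAC-R or VIN-R. There Sema4c was not called against VIN-R (-0.51, adjusted p = 0.168), and the Plxna4 difference from VIN-R was -4.15.

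Some members differed from another resistant line without being called against Control. Sema4g was higher in ERI-R by 2.19 (SE 0.55, adjusted p = 0.0169) against PAC-R and by 2.94 (SE 0.57, adjusted p = 0.00423) against VIN-R, and the former call was lost without PAC-R 1 (adjusted p = 0.0599) and in the 8 libraries with Lyz2 (adjusted p = 0.0525). Plxnb1 was higher by 1.79 (SE 0.50, adjusted p = 0.029) and by 1.86 (SE 0.50, adjusted p = 0.0238). Its calls were lost without ERI-R 1 (adjusted p = 0.0661 and 0.056), without PAC-R 1 or PAC-R 2 (1.52 and 1.66), and without VIN-R 1 or VIN-R 2 (1.60 and 1.59). In the 8 libraries with Lyz2 the difference of Plxnb1 from VIN-R was 2.49, and without VIN-R 3 it was 2.53. Sema3b was higher in ERI-R than in VIN-R by 3.62 (SE 1.06, adjusted p = 0.0351). That call was lost without ERI-R 1 (2.66), VIN-R 1 (3.03) or VIN-R 3 (3.52) and in the 8 libraries (3.85, adjusted p = 0.0928), and the value was 4.68 without VIN-R 2. Sema6c was not called against PAC-R (-1.29 (SE 0.49, adjusted p = 0.102)) or VIN-R (-0.80 (SE 0.49, adjusted p = 0.327)), and Sema6a was not called against VIN-R (1.63 (SE 0.66, adjusted p = 0.121)).

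Levels of different genes were compared by the deposited TPM, which is scaled by transcript length. Sema7a was the highest ligand in Control (64.9 ± 24.8 TPM, SD, n = 3), PAC-R (98.0 ± 8.78) and VIN-R (148 ± 48.9). Its libraries did not overlap with those of the next ligand in any of these groups, Sema3e at 33.3 ± 9.99 TPM in Control and 34.4 ± 6.06 in VIN-R, and Sema4b at 24.7 ± 5.23 in PAC-R. In ERI-R the first ligands were Sema3c (34.6 ± 10.8 TPM) and Ntn1 (21.3 ± 10.2), whose libraries overlapped. By group means Plxnb2 was the highest receptor in each group, at 112 ± 28.2 TPM in Control and 246 ± 219 in ERI-R, followed by Neo1 at 85.6 ± 26.1 and 54.7 ± 43.2. The order was not the same in each library: Neo1 was above Plxnb2 in Control 3 (104 and 85.6 TPM), and Nrp2 was above it in VIN-R 2 (102 and 89.6 TPM). The ERI-R spread was set by ERI-R 3, with 498 TPM of Plxnb2 and 6.69 TPM of Neo1, against 126 and 113 TPM and 90.5 and 67.0 TPM in ERI-R 1 and ERI-R 2. By CPM the relative differences were smaller, with 343, 349 and 580 CPM of Plxnb2 in ERI-R 1 to 3. For Neo1 these values were 202, 176 and 54.8 CPM.

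Some members differed between libraries with and without Lyz2. By CPM in all 4 groups, Sema4d, Plxnc1 and Plxnd1 were higher in both libraries with Lyz2 than in the library without it. By the same measure Sema3f, Sema4b, Plxnb1 and Plxnb2 were lower. The other 26 tested members were mixed, and the share of all genes with either pattern was not counted. By TPM the values in ERI-R 1 to 3 were 8.5, 5.22 and 4.13 for Sema4b and 27.4, 15.1 and 9.98 for Plxnb1. Those of Sema3f were 32.2, 13.2 and 14.2. By TPM in ERI-R, Sema4b, Plxnb1 and Sema3f were thus not lower in both libraries with Lyz2. Plxnb2 was, at 126, 113 and 498 TPM in ERI-R 1 to 3. Plxnc1, which macrophages and dendritic cells are known to express, had 0 counts in the 4 libraries without (each allowing up to 0.217 to 0.315 CPM) and 1.84 to 18.7 CPM in the 8 with it. Sema4d, known from lymphocytes and other leukocytes, was at 11.6 to 39.6 CPM in the 4 and 19.2 to 137 CPM in the 8. Sema4a, also a leukocyte gene, had 0.505, 14.6 and 7.42 CPM (Control 1 to 3), 18.2, 12.5 and 17.4 (ERI-R), 18.8, 7.66 and 0.746 (PAC-R) and 5.68, 17.0 and 0.443 (VIN-R). It was under 1 CPM in 3 of the 4 libraries without Lyz2, but at 17.4 CPM in ERI-R 3, where Lyz2 was at 0. With the leukocyte markers as a covariate the change of Sema4a in ERI-R against Control was 2.41 and missed the threshold (adjusted p = 0.0582). The part of leukocyte RNA in the levels of these genes was not tested further. Of the members that rose in ERI-R, Sema3d, Sema6a and Unc5c were lowest among the ERI-R libraries in ERI-R 3, the library without Lyz2 (1.26, 17.0 and 10.9 CPM). Sema3c and Ntn1 were at 101 and 70.0 CPM there, against 103 and 125 CPM for Sema3c and 64.1 and 93.9 CPM for Ntn1 in ERI-R 1 and 2. ERI-R 3 was also the lowest ERI-R library for every member that fell except Sema4b, Sema6c, Unc5a and Unc5b.

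**Figure D5:**
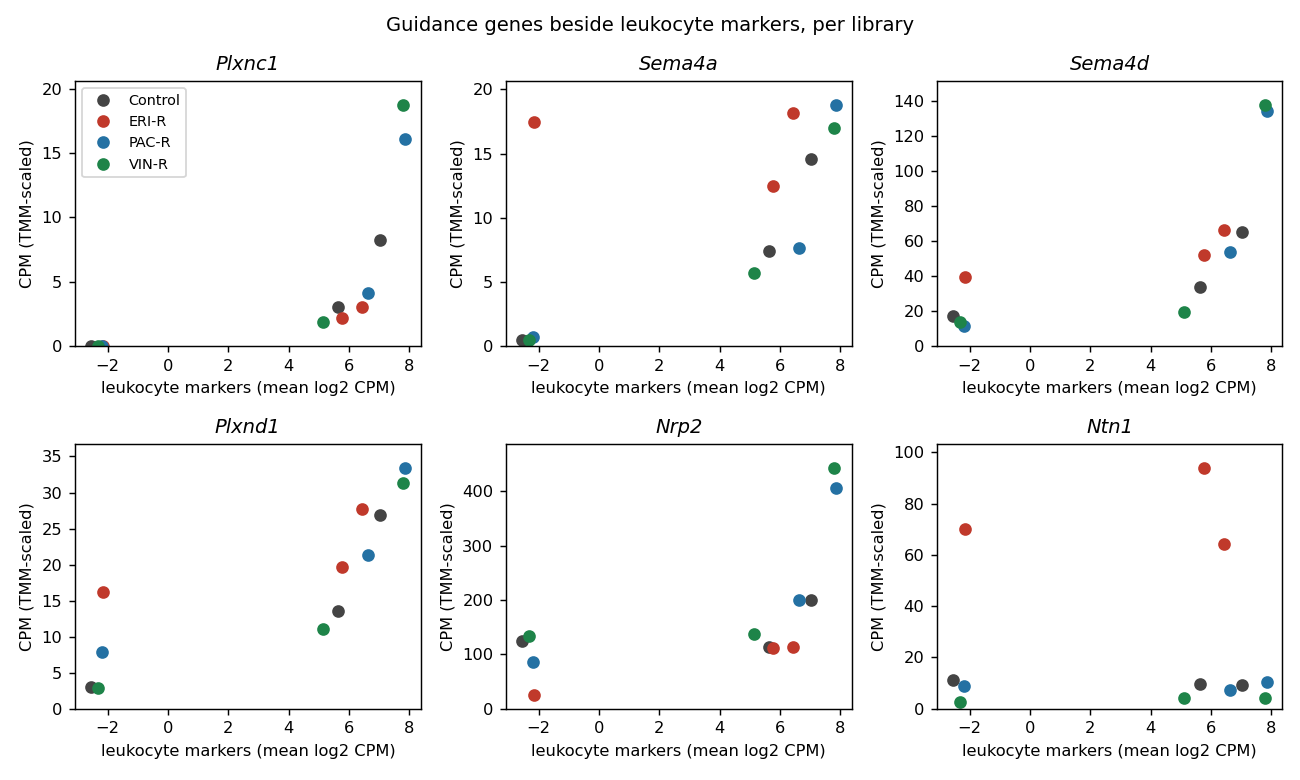
CPM of 6 members against the mean log2 CPM of 14 leukocyte markers, 1 point per library, coloured by group. Plxnc1 is at 0 in the 4 libraries on the left, Sema4a is under 1 CPM in 3 of them and at 17.4 CPM in ERI-R 3, and Ntn1 is at 64.1 CPM or more in the 3 ERI-R libraries on both sides.

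Other genes of the guidance pathways changed in both directions in ERI-R against Control. Of 10 Slit and Robo genes, the other large family of repelling cues with its receptors and GTPase partners, 7 were tested, 4 rose and 1 fell, with a median log2 fold change of 1.02. Over all genes 9.51% were called higher and 9.69% lower. Robo3, the Robo receptor of crossing axons, had 0, 0.168 and 0.175 CPM in Control and 2.74, 9.82 and 45.0 in ERI-R (7.32 (SE 1.46, adjusted p = 0.00553)). Robo1, a Slit receptor, had 0.144, 0.419 and 0.175 CPM in Control and 21.2, 20.0 and 3.99 in ERI-R (5.89 (SE 1.18, adjusted p = 0.00567)). The other rises were the Robo-binding GTPase activators Srgap1 and Srgap3. Slit2, the secreted ligand, fell from 129, 102 and 191 CPM to 45.5, 61.8 and 33.0 (-1.59 (SE 0.40, adjusted p = 0.0179)). The groups did not overlap for any of these 3. In the 8 libraries with Lyz2 Robo3 was at 5.21. Without ERI-R 3, Robo3 was at 5.86, Robo1 at 6.48 and Slit2 at -1.24, and Slit2 was not called then or without Control 1 or Control 3 (adjusted p = 0.0698, 0.062 and 0.0757), nor in the 8 libraries with Lyz2 (adjusted p = 0.0647). Srgap3 was not called without Control 2, Control 3 or ERI-R 1 (0.85, 0.92 and 0.79).

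Of 17 netrin-related genes 14 were tested, 3 rose and 2 fell, with a median log2 fold change of 0.02, beside 9.51% higher and 9.69% lower over all genes. Ntng1 (netrin-G1), a membrane-anchored netrin relative that binds a ligand of its own and no Dcc or Unc5 receptor, had 2 counts over the 3 Control libraries, both in Control 2, and 717 over ERI-R, a CPM ratio of 373 (95% counting interval 103 to 3084). Against VIN-R, with 0 counts, it was at least 243-fold higher by a floor of 3 counts over the group. Enah, an actin regulator acting after netrin receptors, had 39.6, 32.1 and 37.7 CPM in Control and 142, 132 and 135 in ERI-R (1.90 (SE 0.22, adjusted p = 0.000511)). Rgmb, a neogenin ligand, fell from 55.2, 59.2 and 48.6 to 13.1, 15.3 and 6.51 CPM (-2.22 (SE 0.35, adjusted p = 0.00165)), while its relative Rgma rose by 1.72 but was not called without Control 2 or Control 3 (1.64 in both). Dapk1, a kinase of the Unc5 death pathway, was called at -1.13 (SE 0.34, adjusted p = 0.0408) but not after leaving out any 1 of the 6 libraries (-1.28 to -0.72).

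Of 28 genes of semaphorin signalling 22 were tested, 1 rose and 7 fell, with a median log2 fold change of -0.41, beside 9.51% higher and 9.69% lower over all genes. Dpysl5, a collapsin response mediator protein, was the rise, from 0.0722, 0.251 and 0 CPM in Control to 25.1, 15.4 and 19.1 in ERI-R (7.40 (SE 1.06, adjusted p = 0.00116), and 8.65 without Control 2). Its relative Dpysl3 fell from 449, 329 and 349 to 31.2, 18.7 and 19.7 CPM (-4.01 (SE 0.31, adjusted p = 0.000309)). Mical2, an actin-oxidising enzyme of the plexin-binding Mical family, fell from 169, 92.6 and 60.6 to 25.3, 9.29 and 8.61 CPM (-2.90 (SE 0.53, adjusted p = 0.00361)), with -2.30 without Control 1, -3.57 without ERI-R 1 and -2.04 in the 8 libraries with Lyz2. Itgb1, the integrin subunit bound by Sema7a, fell by 1.90 on the log2 scale, and Dpysl2, Farp1, Furin and Rnd1 also fell. In the VEGF group, whose members share neuropilins with semaphorins, 7 of 8 genes were tested, 1 rose and 1 fell, with a median of -0.52. That share lies near the 19.2% of all genes. Flt1, a VEGF receptor, rose from 19.9, 48.8 and 35.2 to 399, 179.5 and 245 CPM (2.99 (SE 0.67, adjusted p = 0.0101)). Flt4, the receptor of VEGF-C, had 3 counts over ERI-R, all in ERI-R 1, and 72 over Control, a CPM ratio of 23.1 (95% counting interval 7.59 to 115). In PAC-R and VIN-R against Control, edgeR and DESeq2 each called 0 of the 50 tested genes of these 4 lists. At an unadjusted edgeR p under 0.05 there were 3 in PAC-R and 5 in VIN-R, beside 1.72% and 2.68% of all genes.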

How the data were processed

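Each sample is 1 library, and groups follow the treatment and cell line in the labels. Per the submitters' processing notes, the build was GRCm38 and the tools were RSEM 1.3.2, STAR 2.7.2b, cutadapt 2.4 and bcl2fastq 2.20.0.422. Neither annotation nor strand setting is given in the sources used here. Per the labels' protocols, Kapa mRNA HyperPrep libraries of 200 ng RNA were sequenced paired-end at 76 bases. The files deposited by the authors are RSEM gene results, per the file headers. Of their columns, the expected count estimates the fragments of a gene without normalization, and the deposited TPM is scaled by effective transcript length and library.

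Rounding the expected counts to whole numbers changed 15.3% of those above 0. Genes were kept by filterByExpr (14226 of 55573) and scaled by TMM. A single edgeR 4.0.16 quasi-likelihood fit (R 4.3.3, robust) took in the 12 libraries together, with 1 mean for each group, since all groups then share one estimate of the spread (8 residual and 2.64 prior degrees of freedom, common biological coefficient of variation 0.591). The 6 pairs of groups were compared. Calls were made at an adjusted p under 0.05 (Benjamini-Hochberg, adjusted over every gene tested). SE is the absolute log2 fold change divided by the square root of the F statistic. CPM are expected counts over TMM-scaled totals. Floors are 3 counts, and floors and intervals cover counting error only.

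The members and gene lists were chosen with earlier results of these data known. Every member is accounted for. Values per library are given for members called in at least 1 of the 6 comparisons whose higher group averaged 1 CPM or more. Up to 2 rises and 2 falls are named first per other list, by log2 fold change among called genes at that level. Some further genes of those lists are named for completeness after their values were seen. Promoter windows and starts are from RefSeq (GRCm38.p6), positions from GENCODE M21. Alternatives were DESeq2 1.42.0, its size factors, total counts alone, other filters, a replicate block, a leukocyte covariate, subsets of libraries, and each library left out.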

Additional observations from a re-analysis of the deposited data

How the results depend on the processing

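The counts of members called stayed within 1.5 times of the reported counts (19 against Control, 20 against PAC-R and 20 against VIN-R) under DESeq2, DESeq2 size factors, total counts alone, both other filters, the leukocyte covariate and the 8 libraries with Lyz2. In ERI-R against PAC-R, fitting the 2 groups alone called 8 members, beside 746 genes higher and 508 lower of all 13562 tested. That fit used fewer samples, and the cause of the lower count was not tested. In VIN-R against Control, DESeq2 called 1 member where edgeR called 0, and the cause was not tested. Leaving out single libraries gave 14 to 19 members for ERI-R against Control, 13 to 17 against PAC-R and 14 to 17 against VIN-R, and 0 in the other 3 comparisons. A replicate block gave 18, 19 and 18 members for ERI-R against Control, PAC-R and VIN-R, and 0 in the others. For each gene, the deviation of a library from the mean log2 CPM of its own group was taken. Correlations of these deviations between same-numbered libraries ran from -0.863 to 0.917. All negative values involved Control 1 or Control 3, and pairs among the resistant lines ran from 0.0829 to 0.917. The library without Lyz2 is number 1 in Control and number 3 in the resistant lines. The numbers were not taken to pair the libraries. Of 882 values of called members under these alternatives, 755 kept direction and call, 127 kept direction only and none reversed. Depth limits the 7 untested members, none above 1.12 CPM.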
